A study of Mus musculus with 24 samples.

Results

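Lacrimal gland stem cell (LGSC) spheres at day 7 of culture were compared with adult lacrimal gland (LG) in mouse. The comparison took the 17698 genes, of 63862 listed, whose mean over both groups was at least 0.5 FPKM, that is, sequenced fragments scaled to exon length in kilobases and to the size of the library. It used 6 of the 21 libraries read, 3 of spheres and 3 of gland. Of the listed genes, 42239 were above 0 in at least 1 of the 20 passage 2 and tissue libraries, and the remaining 21623 were counted as not measured. The spheres came from C57BL/6 mice 6 to 8 weeks old. Their glands were dissociated with Dispase, Collagenase I and trypsin, and the cells were embedded in Matrigel and fed a serum-free DMEM/F12 medium with N2, B27, Wnt3A, FGF10, EGF and the ROCK inhibitor Y-27632. Passage 2 spheres were taken 7 days after plating. Adult LG was whole, untreated gland of C57BL/6 mice, labelled only as adult, with neither the age in weeks nor the sex given. Passage 2 spheres at days 5, 10 and 14, embryonic LG at E17.5 and E19.5 and 1 library of passage 10 (P10) spheres were also sequenced and appear below only as values. The spheres are a cultured population under exogenous growth factors, whereas the gland is a mixture of epithelium, stroma, vessels, nerve and immune cells, so every difference below is between a culture and a whole organ. In bulk RNA, fewer cells of a type and less RNA per cell cannot be told apart. Neither the labels nor the methods say that replicates came from separate mice or cultures, so the p-values measure only the spread between these samples, which may be technical.

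The LG makes the watery layer of the tear film. Its acinar cells synthesise and export large amounts of tear protein, its ducts adjust the fluid and its myoepithelial cells squeeze it out, and the epithelium lies in a stroma rich in plasma cells and other leukocytes. Epithelial stem cells taken from such glands are usually recognised by basal keratins, and in a gel with EGF, FGF10 and Wnt ligand they divide and form spheres without the stroma, vessels and immune cells of the organ.

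Promoters of genes from the groups described below are shown first, because members of the cell division and cholesterol synthesis groups were all higher in the spheres where they passed the test, and because secreted proteins of the gland were among the largest falls. They are the 250 bases upstream of the RefSeq transcription start, in assembly GRCm38.p6, 5′ to 3′ on the gene's strand. In the 5 genes of division and sterol synthesis, capitals mark the NF-Y box CCAAT and the cell cycle element CHR, TTTGAA, on either strand. Adjacent boxes run together in Ube2c, where 2 matches overlap.
Ube2c, chr2:164769679-164769928, plus strand: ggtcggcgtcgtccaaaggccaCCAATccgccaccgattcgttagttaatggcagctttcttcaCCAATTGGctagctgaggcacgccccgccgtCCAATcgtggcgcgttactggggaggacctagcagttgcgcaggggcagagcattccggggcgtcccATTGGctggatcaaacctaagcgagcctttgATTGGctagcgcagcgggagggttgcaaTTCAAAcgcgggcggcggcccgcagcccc
Ccnb2, chr9:70421555-70421804, minus strand: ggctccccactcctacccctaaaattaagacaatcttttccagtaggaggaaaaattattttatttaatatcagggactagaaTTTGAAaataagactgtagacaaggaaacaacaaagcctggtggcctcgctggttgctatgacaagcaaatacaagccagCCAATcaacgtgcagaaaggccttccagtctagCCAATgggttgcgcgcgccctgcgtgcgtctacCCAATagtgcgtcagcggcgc
Plk1, chr7:122159185-122159434, plus strand: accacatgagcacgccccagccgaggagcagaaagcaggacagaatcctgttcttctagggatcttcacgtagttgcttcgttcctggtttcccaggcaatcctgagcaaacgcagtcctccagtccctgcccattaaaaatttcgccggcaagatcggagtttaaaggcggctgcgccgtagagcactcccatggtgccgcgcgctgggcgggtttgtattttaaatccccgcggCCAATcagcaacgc
Cdc20, chr4:118437344-118437593, minus strand: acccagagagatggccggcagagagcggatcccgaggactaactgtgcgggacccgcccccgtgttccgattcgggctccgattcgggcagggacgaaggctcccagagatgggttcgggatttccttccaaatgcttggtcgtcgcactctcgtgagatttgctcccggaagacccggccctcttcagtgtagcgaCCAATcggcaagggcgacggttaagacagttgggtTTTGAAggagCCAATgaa
Idi1, chr13:8885356-8885605, plus strand: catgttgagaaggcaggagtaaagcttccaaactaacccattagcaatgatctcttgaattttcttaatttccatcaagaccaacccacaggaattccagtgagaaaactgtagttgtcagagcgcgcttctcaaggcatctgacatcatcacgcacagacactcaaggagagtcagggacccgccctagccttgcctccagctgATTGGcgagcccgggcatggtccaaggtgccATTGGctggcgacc

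Among genes with the largest rises, capitals mark TGANTCA, a pattern wider than the AP-1 motif, whose middle base is C or G. The stretches marked in Serpinb5 and Prl2c3 read TGAATCA and so are not that motif in its strict form. Among genes with the largest falls, capitals mark CCAAT.
Serpinb5, chr1:106860925-106861174, plus strand: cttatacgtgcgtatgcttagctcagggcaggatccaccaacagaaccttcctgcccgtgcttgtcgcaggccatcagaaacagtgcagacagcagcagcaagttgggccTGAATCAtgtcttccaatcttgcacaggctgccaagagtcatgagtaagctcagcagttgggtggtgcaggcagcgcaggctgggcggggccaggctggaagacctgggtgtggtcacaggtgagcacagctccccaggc
Prl2c3, chr13:12800080-12800329, minus strand: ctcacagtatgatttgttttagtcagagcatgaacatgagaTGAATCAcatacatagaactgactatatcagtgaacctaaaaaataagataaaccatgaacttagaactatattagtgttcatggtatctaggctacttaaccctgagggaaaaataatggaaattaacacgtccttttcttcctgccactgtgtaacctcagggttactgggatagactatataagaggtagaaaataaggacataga
Mucl2, chr15:103899313-103899562, minus strand: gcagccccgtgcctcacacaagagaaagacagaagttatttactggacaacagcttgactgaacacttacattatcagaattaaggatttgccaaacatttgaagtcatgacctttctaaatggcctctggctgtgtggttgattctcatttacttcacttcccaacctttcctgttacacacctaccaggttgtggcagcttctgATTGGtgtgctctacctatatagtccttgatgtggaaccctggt
Scgb2b2, chr7:31302519-31302768, plus strand: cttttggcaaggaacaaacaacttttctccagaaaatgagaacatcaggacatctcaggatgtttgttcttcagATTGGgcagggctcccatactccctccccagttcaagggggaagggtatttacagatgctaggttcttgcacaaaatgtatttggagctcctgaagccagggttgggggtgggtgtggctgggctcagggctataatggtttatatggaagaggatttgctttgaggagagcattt

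In the first set, CCAAT or its reverse complement occurred 6 times upstream of Ube2c, 3 times upstream of Ccnb2, 2 times upstream of Cdc20 and of Idi1 and 1 time upstream of Plk1. CHR occurred 1 time each in Ube2c, Ccnb2 and Cdc20. Motifs were counted on both strands from 250 bases before to 50 bases after the start. CCAAT was present in 37.9% of all 27025 RefSeq promoters of that length, in 27 (81.8%) of the 33 cell division genes with a promoter in the table (of 40 listed) and in 14 (93.3%) of the 15 cholesterol synthesis genes (of 22). CHR was present in 18.1% of all promoters and in 16 (48.5%) of those 33, and the E2F motif, TTGGCGC or TTCGCGC, in 3.98% and 9 (27.3%). The sterol element TCACCCC was in 4.73% of all promoters and 2 (13.3%) of the 15. The wider pattern TGANTCA was in 7.93% of all promoters and in 2 of the 7 largest rises with a promoter in the table, and CCAAT in 7 of the 9 largest falls. These letters are matches in a window, and binding was not measured.

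The libraries held 6434281 to 8413697 reads, recovered from the steps between low FPKM values, of which 92.6% to 93.5% came out whole to within 0.01 of a read. In the spheres, 5.5% to 6.9% of the reads lay in the 10 most abundant genes of each library, against 60.4%, 59.6% and 31.3% in adult LG replicates 1, 2 and 3. The deposited FPKM of the first 2 of these was divided by a smaller total than the reads the file contains: reads over that total came to 2.667, 2.567 and 1.103 in adult LG and to between 0.846 and 0.978 in the spheres. Dividing each library by its recovered reads instead moved the median log2 fold change of all tested genes from -0.08 to 0.58, and quantile normalization moved it to 0.20. Values below are on the deposited scale unless another is named.

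Adult LG replicate 3 stood apart. It listed the milk protein genes Wap at 0.822, 2.50 and 11684 FPKM in replicates 1, 2 and 3, Csn1s2a at 0.355, 0.630 and 5722 FPKM, Csn2 at 0.419, 0.182 and 2292 FPKM and Lalba at 0, 0 and 382 FPKM. Replicates 1 and 2 were near 0 for all of these, and none of these milk genes passed the test. Its mean squared deviation from the group mean was 0.441 (log2 units squared), against 0.189 and 0.271 for the other adult libraries. Xist, transcribed from the inactive X chromosome, was at 0.116, 0.0704 and 74.4 FPKM in the adult libraries and 0.0121, 95.6 and 104 FPKM in the spheres, and Eif2s3y, Kdm5d, Uty and Ddx3y of the Y chromosome were above 0 only in sphere replicate 1 and adult replicates 1 and 2. The libraries therefore differed in these sex-linked genes within both groups.

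Sphere replicate 2 (deviation 0.182, against 0.084 and 0.102) had high genes of the cornified surface of stratified epithelium. Krtdap was at 3.02, 873 and 5.43 FPKM in sphere replicates 1, 2 and 3, Spink5 at 8.74, 587 and 4.74 FPKM, Krt1 at 0, 467 and 0.228 FPKM and Dmkn at 22.3, 224 and 11.4 FPKM. The same library was low for the simple epithelial keratins Krt18, at 689, 130.1 and 1195 FPKM, and Krt7, at 10.3, 0.997 and 10.1 FPKM. Each library was left out in turn for every gene list below, and list counts that moved by more than 1.5 times are given beside the list.

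**Figure D1:**
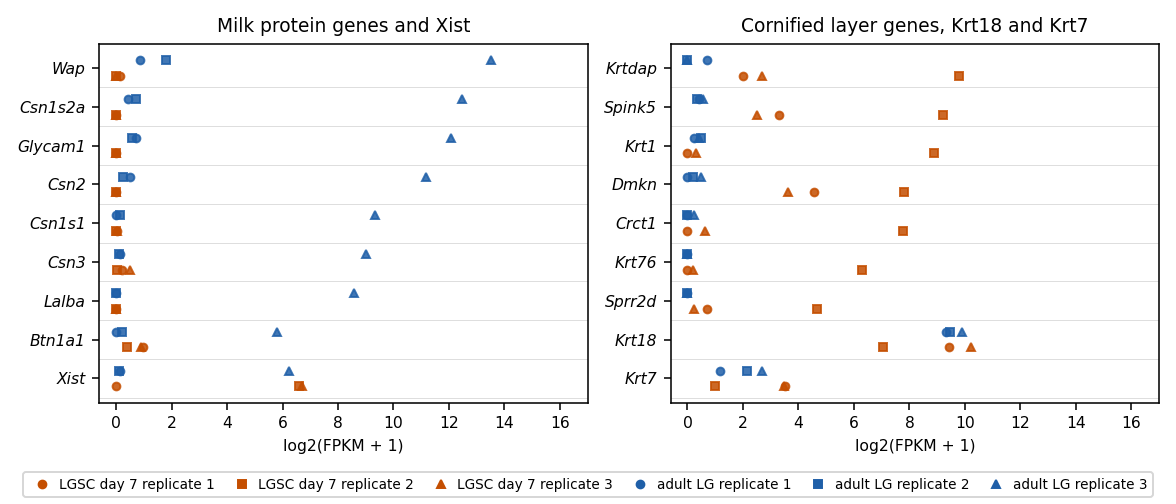
Levels in each library of genes that set adult LG replicate 3 and sphere replicate 2 apart, as log2(FPKM + 1), with 1 point per library. Milk protein genes are high in adult LG replicate 3 alone (Wap 11684 FPKM against 0.822 and 2.50), and genes of cornified epithelium are high in sphere replicate 2 alone (Krt1 467 FPKM against 0 and 0.228).

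A further limit concerns genes near 0 throughout the 20 libraries. Of 5333 genes at 10 FPKM or more in the P10 library, which was listed in a table of its own, 577 were at 0 in all 20 libraries and 2696 had a day 7 mean under 0.1 of their P10 value. The marker gene Epcam was among those at 0 (P10 261 FPKM), as was the proliferation marker Mki67, although day 7 and P10 spheres are cultures of the same kind. The cause was not tested. A level near 0 in both groups is therefore given only as a listed value. In the gene lists below, members were counted that had 1 FPKM or more in P10 and a day 7 mean under 0.1 of that. Such members numbered 23 of 40 for ribosomal proteins, 15 of 28 for wound repair and 15 of 35 for the respiratory chain. Such members numbered 14 of 27 for EGF and FGF signalling and 12 of 39 for the Wnt pathway. They numbered 9 of 25 for protein folding and export, 9 of 22 for cholesterol synthesis, 8 of 22 for glutathione, 8 of 20 for water and ion transport, 8 of 27 for interferon and 7 of 14 for ductal markers. The lists for secretory transcription factors, epithelium, basal markers, division and glycolysis have their number beside them, and the remaining lists had 0 to 4.

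Of the 17698 genes, 6238 (35.2%) differed between day 7 spheres and adult LG at an adjusted p under 0.05, 2507 (14.2%) higher in the spheres and 3731 (21.1%) lower. Counts for the gene lists below are to be read beside these shares of all genes. The test throughout was limma's moderated test on log2(FPKM + 1), two-sided, with Benjamini-Hochberg adjustment over all tested genes, and fold changes on that scale understate those of low genes. The split depended on the scaling: 40.2% of passing genes were higher on the deposited scale, 73.7% when scaled to recovered reads and 59.2% after quantile normalization. With limma-voom on recovered reads, scaled by trimmed mean ratios between libraries, 39.6% of passing genes were higher (2052 higher, 3132 lower, 13666 tested). Under the first 3 of these scalings, 4340 genes passed in the same direction, of which 2503 were higher and 1837 lower. The median absolute log2 fold change of passing genes was 1.54, 170 genes rose by more than 3 log2 units and 762 fell by more than 3. The sphere and gland libraries did not overlap for 52.4% of genes tested, with the spheres higher for 22.9% and lower for 29.5%. Each library was also left out in turn, and where a call is said below to end without named libraries, each of them was left out on its own. Without adult LG replicate 3, 8135 genes passed (3254 higher, 4881 lower) and without sphere replicate 2, 4598 passed (1855 higher, 2743 lower). Among 9499 protein-coding genes, 38.8% passed (1567 higher, 2123 lower). Among 1162 long intergenic and antisense RNAs, 35.5% passed, and 327 of those 412 were lower in the spheres.

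**Figure D2:**
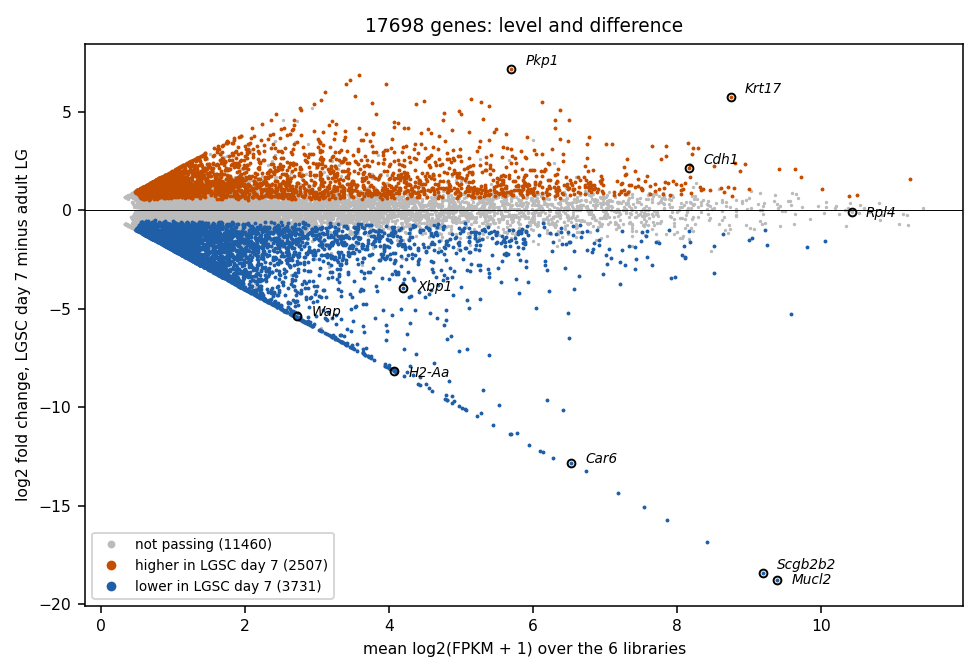
Log2 fold change, day 7 spheres minus adult LG, on log2(FPKM + 1), against the mean level of each of 17698 genes over the 6 libraries. Coloured points passed at an adjusted p under 0.05 (2507 higher, 3731 lower), and the largest falls, led by Mucl2 and Scgb2b2, reach -18.79.

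Log2 fold changes of the 12 largest rises ran from 5.50 to 7.16. The rule for the largest changes required groups that do not overlap. Pkp1, which encodes the desmosomal plaque protein plakophilin 1, was at 452, 921 and 571 FPKM in the spheres and 1.82, 3.33 and 5.74 FPKM in adult LG (log2 fold change 7.16, SE 0.41, adjusted p = 1.59e-04). Hmga2, a chromatin protein of embryonic and proliferating cells, was at 66.1, 153 and 209 FPKM in the spheres and 0.184, 0.0466 and 0.0968 FPKM in adult LG (log2 fold change 6.87, SE 0.42, adjusted p = 1.92e-04). Krt17, a keratin of basal and wounded epithelium and the most abundant of the 12 largest rises, was at 2519, 4123 and 3018 FPKM in the spheres and 37.7, 45.1 and 111 FPKM in adult LG (log2 fold change 5.75, SE 0.44, adjusted p = 3.80e-04).

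Serpinb5, the epithelial serpin called maspin, was at 218, 349 and 204 FPKM in the spheres and 2.26, 2.18 and 10.6 FPKM in adult LG (log2 fold change 5.67, SE 0.55, adjusted p = 7.96e-04). Cxcl5, a chemokine that attracts neutrophils, varied more between spheres, at 380.4, 46.2 and 169 FPKM in the spheres and 0.445, 0.508 and 1.13 FPKM in adult LG (log2 fold change 6.44, SE 0.72, adjusted p = 0.00132). Cdkn2a, whose transcripts encode the cell cycle inhibitors p16Ink4a and p19Arf, was at 69.4, 60.4 and 74.2 FPKM in the spheres and 0, 0.269 and 0 FPKM in adult LG (log2 fold change 5.99, SE 0.21, adjusted p = 3.65e-05). The cyclin-dependent kinase inhibitor gene thus stood among the rises beside the division genes described below. Fscn1, the actin-bundling protein fascin, was at 418, 504 and 491 FPKM in the spheres and 5.09, 8.90 and 17.7 FPKM in adult LG (log2 fold change 5.50, SE 0.41, adjusted p = 3.62e-04), and Galnt6, which starts O-linked glycan chains, at 161, 163 and 134 FPKM in the spheres and 1.82, 2.53 and 2.61 FPKM in adult LG (log2 fold change 5.54, SE 0.21, adjusted p = 5.08e-05). Prl2c3, a member of the proliferin family, was at 44.5, 176 and 163 FPKM in the spheres and 0, 0.232 and 0.0964 FPKM in adult LG (log2 fold change 6.63, SE 0.53, adjusted p = 4.45e-04). Its close copies may share reads, so its own level is uncertain. The other rises among the 12 were Dynap (log2 fold change 6.42), Sh2d5 (5.79) and 1700007K13Rik (5.61), and the next gene in order was Cdkn2b, the neighbour and relative of Cdkn2a, with a log2 fold change of 5.48.

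Among the 12 largest falls were secretoglobin, Esp and mucin-like genes, whose products glands secrete, and several were at 0 in every sphere library. Mucl2, a mucin-like secreted protein, was listed at 0 in the 3 sphere libraries and at 679556, 807362 and 171251 FPKM in adult LG, at least 1507026-fold lower when the spheres are set at the 3 reads that a count of 0 allows in a library (log2 fold change -18.79, SE 0.58, adjusted p = 3.42e-05). Scgb2b2, a secretoglobin of the androgen-binding protein family, was at 0 in the spheres and at 871600.3, 624616 and 75437 FPKM in adult LG, at least 800229.5-fold lower (log2 fold change -18.40, SE 0.88, adjusted p = 9.22e-05). Adult LG replicate 3 had the lowest gland value of both genes.

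Scgb1b3 was uneven within the gland, at 295403, 234724 and 2374 FPKM against 0 in the spheres (log2 fold change -15.74, SE 1.78, adjusted p = 0.00136), and Scgb1b7 was at 274758, 249724 and 23588 FPKM (log2 fold change -16.84). Esp6, an exocrine gland-secreted peptide, was at 0 and at 74649, 58508 and 9759 FPKM (at least 82329.6-fold lower, log2 fold change -15.09). Secretoglobin, Esp and Mucl genes have near-identical copies, and the counting could split reads among them, so the value of a single copy is uncertain. Car6, the secreted carbonic anhydrase, went the other way within the gland, with its highest value in replicate 3, and was at 0, 0 and 0.246 FPKM in the spheres and 5463, 5639 and 15948 FPKM in adult LG (log2 fold change -12.84, SE 0.44, adjusted p = 3.65e-05). Esp18, Gm5938, 9530002B09Rik, Gm12888, Scgb2b28-ps and Gm14743 completed the 12, with log2 fold changes from -13.24 for Esp18 and -14.37 for Gm5938 to -11.37 for Gm14743. All 12 falls and all 12 rises passed when any one library was left out.

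**Figure D3:**
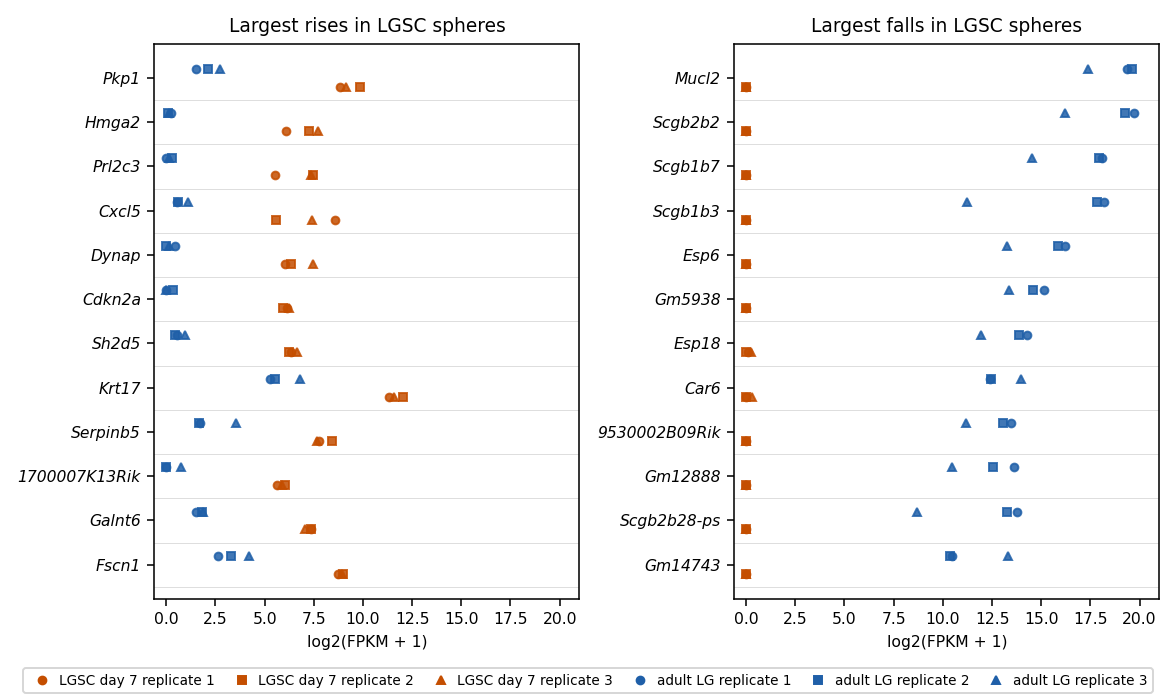
Level in each library of the 12 largest rises and the 12 largest falls, as log2(FPKM + 1), with spheres and adult LG in different colours. The rule for the 24 genes required that sphere and gland points do not overlap, and Mucl2, Scgb2b2, Scgb1b3 and Scgb1b7 are at 0 in all 3 sphere libraries.

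Tear protein genes and transcription factors of secretory cells were lower in day 7 spheres or did not pass. Of 25 tear protein genes, 21 were tested, 17 were lower and none higher, with a median log2 fold change of -9.03 (all genes: 35.2% passed, median -0.08). Scaled to recovered reads or quantile-normalized, 16 of the 21 were lower and none higher. The filter took the mean over both groups, so a member near 0 in the spheres could be tested through its gland level alone. For such a member only the lower direction was open. Without the filter on low FPKM, 16 of 23 were lower and none higher (median -7.93). Without adult LG replicate 3, 16 of 19 were lower (median -9.39). Lyz2, lysozyme of macrophages and of tears, was at 0, 0.0972 and 0 FPKM in the spheres and 97.3, 184 and 193 FPKM in adult LG (log2 fold change -7.20, SE 0.30, adjusted p = 6.04e-05). Pigr, the receptor that carries IgA across the epithelium into tears, was at 0.671, 0 and 0.194 FPKM in the spheres and 408, 446 and 158 FPKM in adult LG (log2 fold change -7.93, SE 0.45, adjusted p = 1.52e-04). Pip, the prolactin-induced protein of exocrine fluids, was at 0.362, 0 and 0 FPKM in the spheres and 1241, 764 and 484 FPKM in adult LG (log2 fold change -9.44). Each was near 0 in every sphere library. Wfdc18 stood well above 0 in sphere replicates 1 and 3, at 624, 11.3 and 253 FPKM in the spheres and 2691, 4920.5 and 7875 FPKM in adult LG (log2 fold change -5.24, SE 1.39, adjusted p = 0.028). The call for Wfdc18 ended without sphere replicate 3 or adult LG replicate 1, 2 or 3 (log2 fold change -5.75 to -4.86, adjusted p 0.0571 to 0.0807). Ltf, lactoferrin, was low on both sides at 0.0626, 0.0371 and 0.129 FPKM in the spheres and 0.961, 1.10 and 6.65 FPKM in adult LG and did not pass (log2 fold change -1.55, SE 0.53, adjusted p = 0.0605).

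Of 15 transcription factors of secretory cells, 7 were tested and 5 were lower (median -2.75), while 4 were not measured and 6 had a day 7 mean under 0.1 of P10. Scaled to recovered reads, 4 of the 7 were lower and none higher (median -1.67). With no filter on low FPKM, 4 of 11 were lower and none higher (median -0.74). Creb3l1, an endoplasmic reticulum-bound activator of secretory capacity, was at 3.36, 2.31 and 3.09 FPKM in the spheres and 229, 212 and 60.4 FPKM in adult LG (log2 fold change -5.21, SE 0.52, adjusted p = 8.94e-04). Xbp1, the factor of the unfolded protein response that builds the secretory apparatus, was at 5.09, 3.23 and 3.03 FPKM in the spheres and 89.8, 65.3 and 58.8 FPKM in adult LG (log2 fold change -3.92, SE 0.27, adjusted p = 2.87e-04). Elf5, a factor of secretory alveolar epithelium, was at 0.735, 3.02 and 0.456 FPKM in the spheres and 65.9, 56.8 and 61.2 FPKM in adult LG (log2 fold change -4.84, SE 0.40, adjusted p = 4.73e-04), and Barx2, a homeobox factor of lacrimal gland development, at 19.0, 18.6 and 7.21 FPKM in the spheres and 55.6, 107 and 159 FPKM in adult LG (log2 fold change -2.75, SE 0.51, adjusted p = 0.00779). These 4 were lower in each sphere library than in each gland library, as were 29.5% of all genes tested. Pax6, the eye and lacrimal regulator, was at 8.72, 4.71 and 5.84 FPKM in the spheres and 11.9, 10.5 and 10.9 FPKM in adult LG and did not pass (log2 fold change -0.74, SE 0.25, adjusted p = 0.0597).

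The machinery that folds and exports protein had smaller differences. Of 25 such genes, 20 were tested, 9 were lower and 1 was higher (median -0.99). Scaled to recovered reads, 7 were lower and 6 higher (median -0.19), while limma-voom on these reads gave 9 lower and 2 higher (-1.25). The balance of this group thus moved with the scaling. It rested on single libraries too, with 3 lower without sphere replicate 3, 4 without sphere replicate 1 or adult LG replicate 2, 5 without adult LG replicate 1, and 14 lower and 2 higher without adult LG replicate 3 (median -1.25). None was higher without sphere replicate 1 or 3 or adult LG replicate 1 or 2. Rab26, a small GTPase of secretory granules, was at 0.0757, 0.0897 and 0.157 FPKM in the spheres and 14.4, 13.3 and 6.25 FPKM in adult LG (log2 fold change -3.40, SE 0.32, adjusted p = 7.27e-04). Dnajc3, a co-chaperone of the endoplasmic reticulum, was at 57.5, 63.2 and 55.9 FPKM in the spheres and 641, 524 and 142 FPKM in adult LG (log2 fold change -2.61, SE 0.56, adjusted p = 0.0133). Hspa5, the chaperone BiP, was at 356, 404 and 408 FPKM in the spheres and 1249.5, 1039.6 and 322 FPKM in adult LG and did not pass (log2 fold change -0.94, SE 0.51, adjusted p = 0.191), and adult LG replicate 3 lay below all spheres. Sec61b, part of the translocation channel, was at 180.1, 212 and 194 FPKM in the spheres and 1100.1, 879.5 and 337 FPKM in adult LG (log2 fold change -1.81, SE 0.44, adjusted p = 0.0212). The call for Sec61b ended without sphere replicate 1, 2 or 3 or adult LG replicate 1 or 2 (log2 fold change -1.87 to -1.48, adjusted p 0.0558 to 0.0752). The call for Dnajc3 ended without sphere replicate 3 or adult LG replicate 2 (log2 fold change -2.57 to -2.34, adjusted p 0.0505 to 0.051).

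Among water channels, Aqp3 was higher and Aqp8 and Aqp1 were lower. Aqp3, an aquaglyceroporin of basal and stratified epithelium, was at 304, 1910.5 and 153 FPKM in the spheres and 8.16, 14.5 and 42.5 FPKM in adult LG (log2 fold change 4.61, SE 1.01, adjusted p = 0.0143), with the highest value in sphere replicate 2. Aqp8 was at 0.0683, 0.0809 and 0 FPKM in the spheres and 466, 329.8 and 91.5 FPKM in adult LG (log2 fold change -7.85, SE 0.58, adjusted p = 3.59e-04), and Aqp1, which in glands lies mainly in vessels, at 0.164, 0.0487 and 0.0425 FPKM in the spheres and 86.6, 134 and 243 FPKM in adult LG (log2 fold change -7.04, SE 0.38, adjusted p = 1.28e-04). Aqp5, the apical water channel of acinar cells, was listed at 0 in the spheres and at 0.497, 0.568 and 0.472 FPKM in adult LG, under the mean needed for a test. Of 20 genes of water and ion transport, 14 were tested, 1 was higher and 6 were lower (median -0.62). Scaled to recovered reads, 3 were higher and 3 lower (median 0.28), while limma-voom on these reads gave 2 higher and 6 lower (-0.78). When adult LG replicate 2 was left out, none was higher and 4 were lower. Slc12a2, the basolateral sodium, potassium and chloride cotransporter that feeds fluid secretion, was at 23.2, 24.8 and 26.4 FPKM in the spheres and 49.0, 76.6 and 130.0 FPKM in adult LG (log2 fold change -1.63, SE 0.36, adjusted p = 0.015), and Kcnma1, a calcium-gated potassium channel, at 0.0636, 0.0151 and 0.0197 FPKM in the spheres and 10.9, 10.6 and 10.5 FPKM in adult LG (log2 fold change -3.50, SE 0.17, adjusted p = 9.22e-05). The call for Aqp3 ended without adult LG replicate 2 (log2 fold change 4.49, adjusted p = 0.0518). The call for Slc12a2 ended without sphere replicate 1 or 3 or adult LG replicate 2 (log2 fold change -1.67 to -1.58, adjusted p 0.0501 to 0.0577).

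Receptors through which nerves start secretion were among the genes that were lower. Chrm3, the muscarinic receptor that drives tear flow, was at 1.80, 1.25 and 3.18 FPKM in the spheres and 24.3, 25.8 and 16.8 FPKM in adult LG (log2 fold change -2.95, SE 0.30, adjusted p = 9.78e-04). The ATP-gated channel gene P2rx4 was at 4.15, 1.84 and 3.32 FPKM in the spheres and 28.1, 24.4 and 13.8 FPKM in adult LG (log2 fold change -2.48, SE 0.35, adjusted p = 0.00309). Chrm1, another muscarinic receptor, had a log2 fold change of -2.30. Of 18 genes of receptors and calcium release, 10 were tested, 5 were lower and none higher (median -0.80). Scaled to recovered reads, 4 were higher and 3 lower (median 0.22), while limma-voom on these reads gave none higher and 5 lower (-0.83). Dividing by recovered reads moved P2rx7 from a log2 fold change of -0.98 on the deposited scale to 0.07. The call for P2rx7 ended without sphere replicate 1, 2 or 3 or adult LG replicate 1 or 2 (log2 fold change -0.99 to -0.80, adjusted p 0.0723 to 0.094). Without sphere replicate 1, 2 or 3 or adult LG replicate 2, 3 of the 10 were lower and none higher, and without adult LG replicate 3, 5 of 9 were lower and 1 higher.

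Genes of leukocytes, vessels and stroma were mostly lower in the spheres. As for tear proteins, members near 0 in the spheres could be tested through their gland level alone, with only the lower direction open. Without the filter on low FPKM, 12 of 19 leukocyte and 9 of 14 endothelial genes were lower and none higher (medians -1.71 and -2.46). For fibroblasts and matrix, 11 of 27 were then lower and 1 higher (median -0.6). Of 20 leukocyte genes, 15 were tested and 14 were lower, with none higher. Their median was -2.60, or -4.30 with genes at 0 set at their 3-read bound. Summed over the list, spheres held 118, 26.3 and 64.9 FPKM and adult LG 304, 538 and 816 FPKM. Most of the sphere sum was Cd14, a lipopolysaccharide co-receptor, at 116 and 62.0 FPKM in sphere replicates 1 and 3 and lower in replicate 2. Cd3g and Cd8a of T cells, Ms4a1 of B cells, Adgre1, Csf1r, Itgam and Itgax of macrophages and dendritic cells, and Tyrobp of myeloid and natural killer cells were at 0 in all 3 sphere libraries. Tyrobp was at 54.7, 98.4 and 146 FPKM in adult LG (at least 173.6-fold lower in the spheres, log2 fold change -6.55, SE 0.36, adjusted p = 1.44e-04).

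MHC class II presents antigen on macrophages, dendritic cells and B cells. Of its 7 genes, 5 were tested and all 5 were lower (median -8.15, or -8.65 with bounds). Without the filter on low FPKM, 5 of 6 were lower and none higher (median -5.88). Cd74, the invariant chain, was at 0.919, 0.363 and 0.792 FPKM in the spheres and 592, 1206 and 1122 FPKM in adult LG (log2 fold change -9.12, SE 0.33, adjusted p = 4.53e-05), and H2-Ab1 was at 0.462, 0.625 and 0.205 FPKM in the spheres and 394, 747 and 625 FPKM in adult LG (log2 fold change -8.65, SE 0.29, adjusted p = 3.65e-05). H2-Aa was at 0 in the spheres and at 207, 349.9 and 312 FPKM in adult LG, at least 2867.8-fold lower. The summed list was at 1.88, 2.83 and 1.60 FPKM in the spheres and 1211, 2334 and 2088 FPKM in adult LG.

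Plasma cells make the IgA of tears. Of 10 of their genes, 4 were not measured (Igkc, Igha, Iglc1, Iglc2), 5 were tested, 4 were lower and 1 was higher. Mzb1, a chaperone of antibody-secreting cells, was at 0.119, 0.989 and 0.987 FPKM in the spheres and 36.2, 42.5 and 36.8 FPKM in adult LG (log2 fold change -4.59, SE 0.28, adjusted p = 1.90e-04), and Ighm, the heavy chain of IgM, was at 0 and at 7.47, 18.7 and 28.6 FPKM (log2 fold change -4.09, SE 0.45, adjusted p = 0.00123). The gene that was higher was Sdc1, syndecan 1, which epithelial cells also carry, at 1.16, 1.71 and 1.26 FPKM in the spheres and 0.109, 0.0828 and 0.103 FPKM in adult LG (log2 fold change 1.11, SE 0.18, adjusted p = 0.00475).

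Vessels and stroma followed the same order. Of 14 endothelial genes, 10 were tested and 9 were lower (median -3.87, or -5.38 with bounds). Plvap, of fenestrated capillaries, was at 0.707, 0.579 and 0.787 FPKM in the spheres and 251, 336 and 572 FPKM in adult LG (log2 fold change -7.76, SE 0.32, adjusted p = 6.04e-05), and Cdh5, the cadherin of endothelial junctions, at 0, 0.0304 and 0 FPKM in the spheres and 26.3, 31.4 and 78.7 FPKM in adult LG (log2 fold change -5.35, SE 0.41, adjusted p = 3.95e-04). Kdr, Emcn, Esam, Cldn5 and Vwf were at 0 in the spheres. The list summed to 22.1, 3.74 and 22.0 FPKM in the spheres, most of it Flt1, and to 345, 459 and 897 FPKM in adult LG. Flt1, a receptor for vascular endothelial growth factor, was at 21.2, 2.61 and 21.1 FPKM in the spheres and 4.17, 4.95 and 13.3 FPKM in adult LG and did not pass (log2 fold change 0.67, SE 0.79, adjusted p = 0.539).

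Of 28 genes of fibroblasts and matrix, 14 were tested, 12 were lower and 1 was higher (median -3.72). Dcn, decorin, was at 0 in the spheres and at 55.4, 95.8 and 186 FPKM in adult LG, at least 1712.7-fold lower (log2 fold change -6.65, SE 0.43, adjusted p = 2.33e-04). Col3a1, fibrillar collagen, was at 0 and at 46.5, 65.3 and 41.6 FPKM (log2 fold change -5.68, SE 0.23, adjusted p = 5.86e-05), and 12 of the list were at 0 in all spheres, among them Col1a2, Lum and Dpt. The exception was Snai2, a transcription factor of mesenchyme that basal epithelial cells also express, at 72.7, 93.8 and 47.9 FPKM in the spheres and 3.27, 4.66 and 11.8 FPKM in adult LG (log2 fold change 3.37, SE 0.46, adjusted p = 0.00276). It made up most of the sphere sum for the list (75.9, 96.7 and 51.1 FPKM, against 234, 379 and 487 FPKM in adult LG). Without sphere replicate 2, 10 of 15 genes of this list were lower and 2 higher. Without adult LG replicate 3, 10 of 14 leukocyte genes, all 5 of MHC class II, 4 of 5 of plasma cells, 9 of 10 of endothelium and 10 of 13 of fibroblasts and matrix were lower.

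Adipocyte genes were 4 of 10 tested, with Pparg lower at 0.439, 1.17 and 0.454 FPKM in the spheres and 2.11, 1.60 and 4.31 FPKM in adult LG (log2 fold change -1.08, SE 0.33, adjusted p = 0.0438). Skeletal muscle genes were 2 of 18 tested, with Tnni2 at 0.721, 0.598 and 1.57 FPKM in the spheres and 0.277, 0 and 0.0876 FPKM in adult LG and just past the threshold (log2 fold change 0.78, SE 0.24, adjusted p = 0.0471). Among 10 genes of Schwann cells and nerve, 7 were tested, 2 were higher and 3 lower (median 0.19). Of these 7, 1 was lower without sphere replicate 1, 2 or 3, 1 was higher without sphere replicate 3 or adult LG replicate 1 or 2, and without adult LG replicate 3, 3 of 6 were higher. The 2 that were higher were Mal, a membrane raft protein that epithelia also use, at 45.4, 182 and 32.7 FPKM in the spheres and 2.69, 6.02 and 9.39 FPKM in adult LG (log2 fold change 3.35, SE 0.70, adjusted p = 0.0122), and Ncam1, a cell adhesion molecule of nerve (log2 fold change 1.14). No adipocyte gene passed without sphere replicate 1 or 3 or adult LG replicate 1 or 3, and no skeletal muscle gene without sphere replicate 1, 2 or 3 or adult LG replicate 1 or 2. The call for Pparg ended without sphere replicate 1, 2 or 3 or adult LG replicate 1 or 3 (log2 fold change -1.28 to -0.78, adjusted p 0.0518 to 0.138). The call for Tnni2 ended without sphere replicate 1 or 2 or adult LG replicate 1, 2 or 3 (log2 fold change 0.70 to 0.91, adjusted p 0.0543 to 0.134). The call for Ncam1 ended without sphere replicate 3 or adult LG replicate 1 or 2 (log2 fold change 1.05 to 1.21, adjusted p 0.0506 to 0.0642).

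Epithelial genes moved in both directions. Cdh1, the epithelial cadherin, was at 684, 445 and 719 FPKM in the spheres and 121, 141 and 146 FPKM in adult LG (log2 fold change 2.14, SE 0.25, adjusted p = 0.00146). Spint1, an inhibitor of membrane serine proteases, and St14, its protease target matriptase, had log2 fold changes of 1.56 and 1.27. All 3 were higher in each sphere library than in each gland library, as were 22.9% of all genes tested. Of 20 epithelial genes, 12 were tested, 4 were higher and 2 lower (median 0.32), and scaled to recovered reads 6 were higher and none lower. Limma-voom on recovered reads gave 4 higher and 2 lower. The 2 that were lower on the deposited scale were the protease gene Prss8 (log2 fold change -1.88) and the splicing factor gene Esrp2 (-1.23). Krt18, of simple epithelium, was at 689, 130.1 and 1195 FPKM in the spheres and 636, 699 and 938 FPKM in adult LG (log2 fold change -0.65, SE 0.78, adjusted p = 0.545), with sphere replicate 2 lowest, and the tight junction gene Cldn3 at 260.5, 45.5 and 441 FPKM in the spheres and 666, 778 and 712 FPKM in adult LG, and neither passed. Epcam was among the 5 members not measured, and 9 had a day 7 mean under 0.1 of P10. Leaving out sphere replicate 1 or 3, 4 were higher and 1 lower. Without sphere replicate 2, 5 were higher and 2 lower, and without adult LG replicate 3, 4 were higher and 3 lower. The call for Esrp2 ended without sphere replicate 1 or 3 (log2 fold change -1.13 to -1.08, adjusted p 0.0612 to 0.0672).

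Of the basal and stem cell markers, Krt14 and Krt17 were higher while Kit was lower. Krt14, the type I keratin of basal cells by which LGSC are usually named, was at 6.51, 17.8 and 9.53 FPKM in the spheres and 0.236, 0.538 and 0.597 FPKM in adult LG (log2 fold change 2.98, SE 0.36, adjusted p = 0.00165), so it rose about 7.89-fold on the scale of FPKM + 1. In the P10 library Krt14 was listed at 7065 FPKM. Its day 7 mean was under 0.1 of that, so its level is given only as a listed value and cannot be ranked against that of Krt17. Krt5, its partner, was at 0.395, 2.16 and 0.510 FPKM in the spheres and 0, 0 and 0.180 FPKM in adult LG and did not pass (log2 fold change 0.83, SE 0.34, adjusted p = 0.101), and its P10 value was 4931 FPKM. Of the 20 markers, 10 were tested, 3 were higher and 2 lower (median 0.73), and 16 had a day 7 mean under 0.1 of P10. With such genes left out of the fit, 2 markers were tested, 1 higher and 1 lower. Besides the keratins, Col17a1, the hemidesmosomal collagen, was higher (log2 fold change 1.63). Kit, the receptor for stem cell factor and a marker used for lacrimal progenitors, was at 5.84, 0.674 and 1.93 FPKM in the spheres and 15.8, 26.0 and 59.5 FPKM in adult LG (log2 fold change -3.22, SE 0.65, adjusted p = 0.0107), and Aldh1a1 was lower (-1.27). Trp63 and Nes had means under 0.5 FPKM, at 0.322, 0.427 and 0.186 FPKM in the spheres and 0, 0.113 and 0.125 FPKM in adult LG for Trp63 and 0, 0 and 0.0174 FPKM in the spheres and 0, 0 and 0.0409 FPKM in adult LG for Nes. When sphere replicate 1 or 3 was omitted, 3 of 10 were higher and 1 lower, without sphere replicate 2, 3 of 9 were higher and 1 lower, and without adult LG replicate 3, 5 of 9 were higher and 1 lower. The call for Aldh1a1 ended without sphere replicate 1, 2 or 3 (log2 fold change -1.28 to -1.27, adjusted p 0.0534 to 0.0624).

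Of 14 ductal markers, 7 were tested and 2 were higher (28.6% passed, against 35.2% of all genes). Without sphere replicate 2, 1 was lower as well, and without sphere replicate 3, 3 of 6 were higher. Wfdc2, a secreted protease inhibitor of duct epithelium, was at 605, 322 and 424 FPKM in the spheres and 26.5, 44.5 and 61.9 FPKM in adult LG (log2 fold change 3.35, SE 0.38, adjusted p = 0.00138), and Klf5, a Krüppel-like factor of dividing epithelium, at 41.5, 86.4 and 45.8 FPKM in the spheres and 1.93, 4.22 and 13.1 FPKM in adult LG (log2 fold change 3.22, SE 0.60, adjusted p = 0.0082). Krt7 was at 10.3, 0.997 and 10.1 FPKM in the spheres and 1.23, 3.40 and 5.46 FPKM in adult LG and did not pass, with sphere replicate 2 again apart from its group. Krt19 was under the mean needed, at 0.349, 0.0689 and 0.241 FPKM in the spheres and 0, 0 and 0.283 FPKM in adult LG.

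Several myoepithelial contractile genes were lower. Acta2, smooth muscle actin, was at 13.3, 2.37 and 9.91 FPKM in the spheres and 105, 109.6 and 524 FPKM in adult LG (log2 fold change -4.51, SE 0.79, adjusted p = 0.00664), and Cnn1, calponin 1, at 0.0395, 0 and 0.0408 FPKM in the spheres and 15.0, 14.6 and 84.7 FPKM in adult LG (log2 fold change -4.76, SE 0.66, adjusted p = 0.00277). Myl9, the regulatory light chain of myosin, was at 0.0929, 0.110 and 0.0961 FPKM in the spheres and 24.3, 27.7 and 90.8 FPKM in adult LG (log2 fold change -5.20, SE 0.49, adjusted p = 7.55e-04). All 3 were lower in every sphere library than in any gland library, as were 29.5% of all genes tested. Of 12 such genes, 8 were tested, 5 were lower and 1 was higher (median -2.04), and smooth muscle of vessels carries most of them too. Without the filter on low FPKM, 4 of 11 were lower and 2 higher (median -0.56). Without sphere replicate 1, 2 or 3, 3 of 9 were lower and 1 higher. The exception was Tpm2, a tropomyosin, at 24.0, 14.7 and 20.2 FPKM in the spheres and 0.997, 0.867 and 4.96 FPKM in adult LG (log2 fold change 2.85, SE 0.48, adjusted p = 0.00573).

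**Figure D4:**
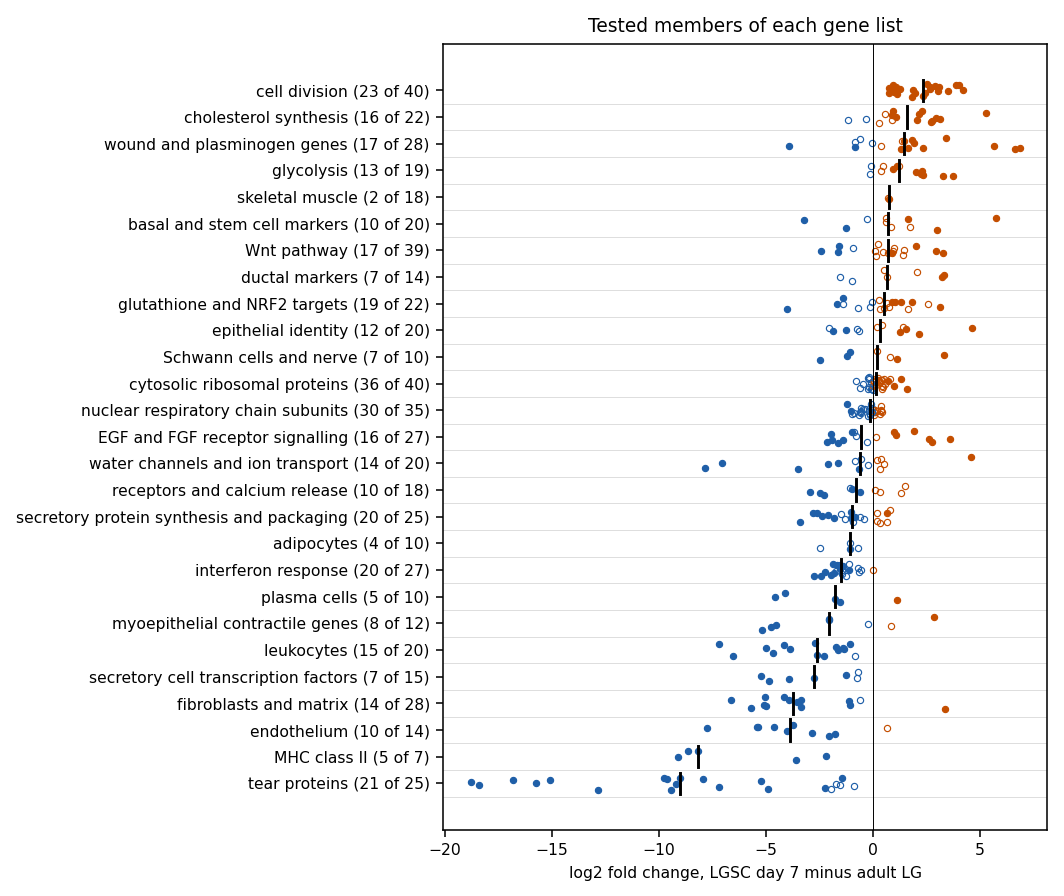
Log2 fold changes of the tested members of each gene list, day 7 spheres minus adult LG on log2(FPKM + 1), with 1 point per gene and the median of the list marked. Tear proteins (median -9.03) and MHC class II (-8.15) lie lowest, cell division highest (2.37), and ribosomal (0.16) and respiratory chain genes (-0.12) near the median of all genes (-0.08).

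Cell division was the largest list of which every tested member passed in the same direction. Of its 40 genes, 23 were tested and all 23 were higher in the spheres (median 2.37, against 14.2% of all genes higher). The same 23 were higher when scaled to recovered reads (median 3.42) and after quantile normalization (2.63), 19 of 22 without sphere replicate 2, 23 of 24 without adult LG replicate 3 and 17 without sphere replicate 1. The remaining members were not measured or had a mean under 0.5 FPKM, and 21 of the 40 had a day 7 mean under 0.1 of P10. The filter took the mean over both groups, so a member low in gland could be tested through its sphere level alone. Bub1, for example, had means of 1.83 FPKM in the spheres and 0.152 FPKM in adult LG. For such a member only the higher direction was open. With no filter on low FPKM, 22 of 38 were higher and none lower (median 1.01). The 23 were thus the members with enough signal to test, in some from the spheres alone, and not the whole programme.

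The 5 largest differences in the list were those of Ube2c, Ccnb1, Plk1, Cdc20 and Ccnb2, which act in mitosis. Ube2c, the ubiquitin-conjugating enzyme of the anaphase-promoting complex, with the most CCAAT boxes of the promoters shown, was at 56.3, 119.8 and 54.6 FPKM in the spheres and 2.07, 2.43 and 4.54 FPKM in adult LG (log2 fold change 4.23, SE 0.39, adjusted p = 6.99e-04). Cdc20, the activator of that complex, was at 106, 229.8 and 87.2 FPKM in the spheres and 10.2, 11.5 and 9.83 FPKM in adult LG (log2 fold change 3.50, SE 0.38, adjusted p = 0.00116). Plk1, the mitotic kinase, was at 38.9, 81.7 and 44.1 FPKM in the spheres and 1.70, 2.87 and 3.40 FPKM in adult LG (log2 fold change 3.89, SE 0.35, adjusted p = 6.19e-04). In each, sphere replicate 2 was highest and the lowest sphere was several times the highest gland. Ccnb1, cyclin B1, was at 25.1, 47.8 and 23.2 FPKM in the spheres and 0.885, 0.748 and 1.18 FPKM in adult LG (log2 fold change 4.02, SE 0.31, adjusted p = 4.04e-04), and Ccnb2, cyclin B2, at 52.3, 81.5 and 48.3 FPKM in the spheres and 5.96, 6.18 and 5.74 FPKM in adult LG (log2 fold change 3.11, SE 0.25, adjusted p = 4.53e-04). Other genes of mitosis had smaller differences, with log2 fold changes of 1.96 for Cenpf, 1.90 for Bub1b, 1.28 for Bub1, 1.12 for Cdk1 and 1.04 for Birc5. Among the replication genes, Mcm3, Mcm4 and Mcm5 of the helicase that opens origins had log2 fold changes of 2.46, 2.37 and 2.69. Pcna, the sliding clamp, was at 162, 201 and 147 FPKM in the spheres and 93.1, 85.4 and 60.3 FPKM in adult LG (log2 fold change 1.09, SE 0.25, adjusted p = 0.0164), and Rrm2, of ribonucleotide reductase, at 48.6, 130.2 and 45.2 FPKM in the spheres and 25.4, 26.0 and 8.47 FPKM in adult LG (log2 fold change 1.83, SE 0.57, adjusted p = 0.0477). The call for Birc5 ended without sphere replicate 1 or adult LG replicate 2 (log2 fold change 0.94 to 0.95, adjusted p 0.0514 to 0.0519). The call for Pcna ended without sphere replicate 1, 2 or 3 (log2 fold change 0.97 to 1.19, adjusted p 0.0509 to 0.0603). The call for Rrm2 ended without sphere replicate 1, 2 or 3 or adult LG replicate 1, 2 or 3 (log2 fold change 1.33 to 2.09, adjusted p 0.0686 to 0.119).

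Genes of glycolysis and cholesterol synthesis were higher or did not pass. Of 19 glycolytic genes, 13 were tested and 8 were higher, none lower (median 1.24), and 11 were higher when scaled to recovered reads. Ldha, which turns pyruvate into lactate, was at 1049, 1346 and 972 FPKM in the spheres and 199, 212 and 242 FPKM in adult LG (log2 fold change 2.35, SE 0.21, adjusted p = 5.93e-04). Eno1, enolase 1, was at 662, 815 and 669 FPKM in the spheres and 50.2, 79.5 and 99.5 FPKM in adult LG (log2 fold change 3.26, SE 0.29, adjusted p = 6.04e-04), and Slc16a3, a lactate exporter, at 48.4, 36.9 and 29.1 FPKM in the spheres and 1.17, 1.42 and 3.43 FPKM in adult LG (log2 fold change 3.75, SE 0.34, adjusted p = 6.76e-04). In these 3 the lowest sphere was several times the highest gland. Pgk1, Pgam1 and Pfkl had log2 fold changes of 2.27, 2.29 and 2.02, and Aldoa of 1.14. Without sphere replicate 2, 7 were higher, and without adult LG replicate 3, 9. Of the 19, 9 had a day 7 mean under 0.1 of P10.

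Of 22 genes of cholesterol synthesis and uptake, 16 were tested, 11 were higher and none lower (median 1.58). When scaled to recovered reads 15 were higher, and without sphere replicate 2, 9 of 15, while leaving out adult LG replicate 3 gave 11 higher and 1 lower. Idi1, an isomerase that makes an early building block of sterols and whose promoter carries both CCAAT boxes shown, was at 13.2, 25.6 and 9.62 FPKM in the spheres and 1.30, 1.26 and 0.673 FPKM in adult LG (log2 fold change 2.95, SE 0.37, adjusted p = 0.00192). Srebf2, the transcription factor of the pathway, was at 156, 222 and 136 FPKM in the spheres and 37.5, 43.8 and 35.5 FPKM in adult LG (log2 fold change 2.08, SE 0.25, adjusted p = 0.00161). Its feedback inhibitor Insig1 was at 22.7, 66.9 and 22.6 FPKM in the spheres and 105, 103 and 36.5 FPKM in adult LG and did not pass (log2 fold change -1.15, SE 0.58, adjusted p = 0.168), with adult LG replicate 3 lower than the others. Ebp, an isomerase of the pathway, did not pass on the deposited scale (log2 fold change -0.31) and was higher when scaled to recovered reads (0.79).

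**Figure D5:**
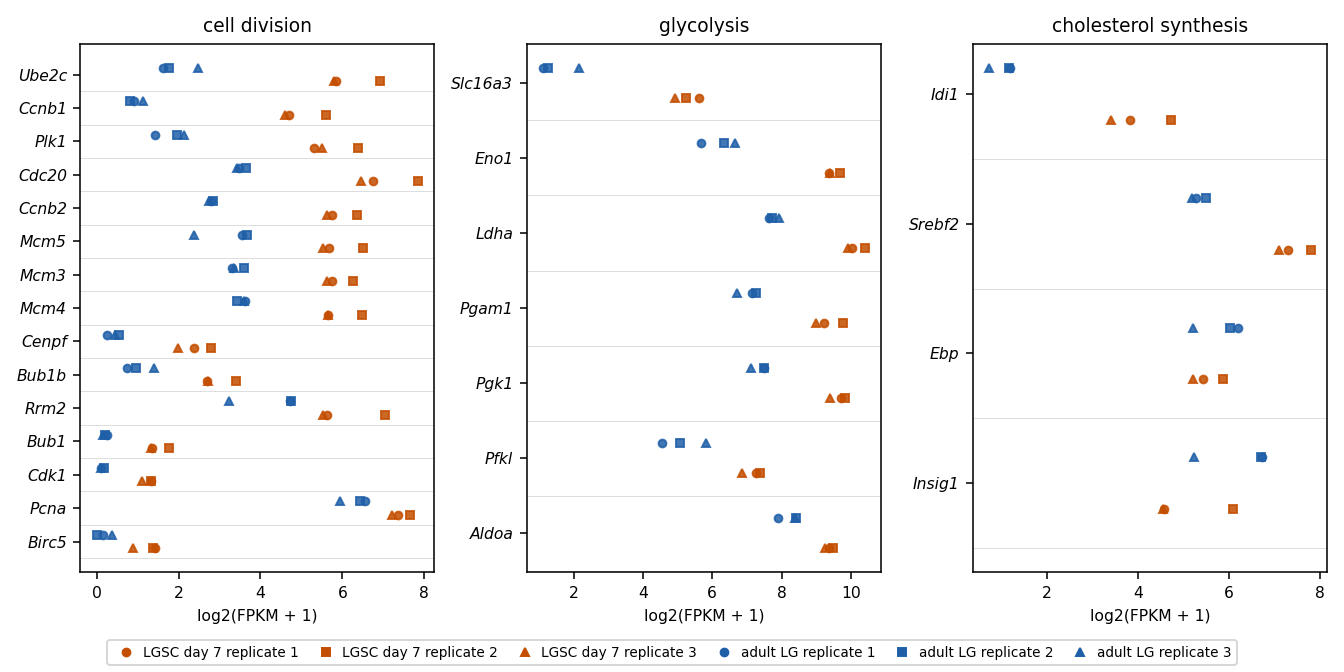
Level in each library of the genes described for cell division, glycolysis and cholesterol synthesis, as log2(FPKM + 1), with spheres and adult LG in different colours. The mitotic genes lie higher in the 3 sphere libraries than in any gland library (Ube2c 54.6 to 120 FPKM against 2.07 to 4.54), as do 22.9% of all genes tested.

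Of 22 glutathione and NRF2 target genes, 19 were tested, 5 were higher and 3 lower (median 0.52), so 42.1% passed, against 35.2% of all genes. Scaled to recovered reads, 9 were higher and 1 lower, while limma-voom on these reads gave 6 higher and 3 lower. Gsta4, a glutathione transferase for lipid peroxidation products, was at 502, 2607 and 541 FPKM in the spheres and 62.2, 117 and 135 FPKM in adult LG (log2 fold change 3.15, SE 0.68, adjusted p = 0.0138), while Gstm1, of the mu class, was at 23.8, 24.0 and 20.7 FPKM in the spheres and 182, 524 and 564 FPKM in adult LG (log2 fold change -3.99, SE 0.45, adjusted p = 0.00135). Enzymes that supply reducing power divided too, with G6pdx and Pgd of the oxidative pentose phosphate pathway higher (log2 fold changes 1.02 and 0.91) and Taldo1 of its other branch and Me1, malic enzyme, lower (-1.41 and -1.67). The call for G6pdx ended without sphere replicate 2 or 3 or adult LG replicate 1 (log2 fold change 0.86 to 1.04, adjusted p 0.0579 to 0.0805). The call for Pgd ended without sphere replicate 1, 2 or 3 or adult LG replicate 1 or 2 (log2 fold change 0.66 to 0.96, adjusted p 0.0688 to 0.128). Without sphere replicate 3, 2 were higher and 3 lower, and 3 were higher and 4 lower without sphere replicate 2 or adult LG replicate 1.

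The medium supplied EGF and FGF10, and the genes of these pathways moved in both directions. Of 27 genes, 16 were tested, 6 were higher and 6 lower (median -0.53), and scaled to recovered reads 6 were higher and 2 lower (median 0.55). Limma-voom on recovered reads gave 6 higher and 6 lower (median -0.53). Among ligands, Tgfa, an EGF receptor ligand, was at 16.7, 30.9 and 24.4 FPKM in the spheres and 1.53, 2.43 and 4.20 FPKM in adult LG (log2 fold change 2.77, SE 0.35, adjusted p = 0.002). Fgf10 itself, a mesenchymal signal to lacrimal buds, was at 0 in the spheres and at 1.53, 2.67 and 7.78 FPKM in adult LG, at least 47.9-fold lower (log2 fold change -2.12, SE 0.45, adjusted p = 0.0126). Fgf7, another mesenchymal ligand, was lower (log2 fold change -1.65). The receptors Egfr and Fgfr2 had means under 0.5 FPKM, at 0.401, 0.248 and 0.246 FPKM in the spheres and 0.110, 0.0835 and 0.127 FPKM in adult LG for Egfr and 0.241, 0.210 and 0.0865 FPKM in the spheres and 0.0401, 0.214 and 0.229 FPKM in adult LG for Fgfr2, while Fgfr1 was higher (1.01) and Erbb4 lower (-1.40). Among targets, Fosl1, an AP-1 subunit, was at 42.1, 83.6 and 52.3 FPKM in the spheres and 1.70, 2.40 and 10.1 FPKM in adult LG (log2 fold change 3.63, SE 0.57, adjusted p = 0.00431), and Etv5, an ETS factor downstream of FGF receptors, at 62.9, 36.7 and 53.7 FPKM in the spheres and 3.84, 6.38 and 14.3 FPKM in adult LG (log2 fold change 2.64, SE 0.45, adjusted p = 0.00609). The feedback inhibitors Spry4 (log2 fold change -1.94) and Errfi1 (-1.92) were lower. The call for Erbb4 ended without sphere replicate 1, 2 or 3 or adult LG replicate 2 (log2 fold change -1.40 to -1.29, adjusted p 0.0553 to 0.0645). The call for Fgf7 ended without sphere replicate 1, 2 or 3 (log2 fold change -1.66 to -1.63, adjusted p 0.0601 to 0.0633). The call for Fgfr1 ended without sphere replicate 1 or 3 or adult LG replicate 1 or 2 (log2 fold change 0.86 to 0.95, adjusted p 0.0619 to 0.0869). Leaving out sphere replicate 1 or 3, 4 of 15 were higher and 3 lower, and without sphere replicate 2, 6 of 16 were higher and 4 lower. Without adult LG replicate 1, 2 or 3, 4, 4 and 7 were higher and 6, 4 and 6 lower.

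Wnt3A was supplied as well. Of 39 Wnt pathway genes, 17 were tested, 4 were higher and 3 lower (median 0.72). The share that passed, 41.2%, was near the 35.2% of all genes. Wnt10a, a ligand of epithelial appendages, was at 40.5, 185 and 25.7 FPKM in the spheres and 2.69, 5.24 and 8.71 FPKM in adult LG (log2 fold change 3.28, SE 0.75, adjusted p = 0.017). It was highest in sphere replicate 2. Of the Frizzled receptors, Fzd1 was higher at 147, 69.9 and 117 FPKM in the spheres and 23.5, 29.8 and 24.7 FPKM in adult LG (adjusted p = 0.00422), and Fzd2 had a log2 fold change of 2.94. Ctnnb1, β-catenin, which serves both Wnt signalling and cell contact, was at 149.5, 99.9 and 162 FPKM in the spheres and 75.5, 74.2 and 63.2 FPKM in adult LG (log2 fold change 0.92, SE 0.25, adjusted p = 0.0296). Rnf43, a feedback target that removes Frizzled, was lower (log2 fold change -1.62), as were the stromal inhibitor Sfrp2 (-2.43) and Rspo3, an R-spondin ligand (-1.57). Axin2, the usual readout of the pathway, was listed at 0.0196, 0.743 and 0 FPKM in the spheres and 0, 0.229 and 0.238 FPKM in adult LG. The call for Wnt10a ended without adult LG replicate 1 or 2 (log2 fold change 2.92 to 3.30, adjusted p 0.0549 to 0.0559). The call for Ctnnb1 ended without sphere replicate 1 or 3 or adult LG replicate 1 or 2 (log2 fold change 0.78 to 0.96, adjusted p 0.0614 to 0.126). The call for Rnf43 ended without sphere replicate 1 or 3 or adult LG replicate 1 or 2 (log2 fold change -1.50 to -1.41, adjusted p 0.0681 to 0.085). Without adult LG replicate 1 or 2, 2 of 18 and 2 of 19 were higher and 2 lower, and without adult LG replicate 3, 6 of 19 were higher and 3 lower. Without sphere replicate 1, 2 or 3, 4 of 19, 5 of 15 and 3 of 18 were higher, and the median was 0.34 without sphere replicate 2.

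Of 28 genes of wound repair and plasminogen activation, 17 were tested, 10 were higher and 2 lower (median 1.48, or 1.35 with bounds), and leaving out each library in turn gave 7 to 10 higher. Without sphere replicate 1, 2 or 3 or adult LG replicate 1 or 2, 1 was lower. The list was drawn up with earlier results of these libraries known, and it contains Hmga2, Serpinb5 and Prl2c3 of the largest rises, so its count is not independent of them. Plaur, the urokinase receptor, was at 30.0, 53.1 and 67.2 FPKM in the spheres and 8.87, 13.5 and 17.6 FPKM in adult LG (log2 fold change 1.81, SE 0.38, adjusted p = 0.0124), and Plat, tissue plasminogen activator, at 14.7, 15.8 and 23.0 FPKM in the spheres and 1.39, 2.38 and 4.79 FPKM in adult LG (log2 fold change 2.36, SE 0.37, adjusted p = 0.00423). Ereg, the EGF receptor ligand epiregulin, was at 6.70, 35.5 and 3.73 FPKM in the spheres and 0, 0 and 0.0953 FPKM in adult LG (log2 fold change 3.42, SE 0.72, adjusted p = 0.0124). Its sphere values spread widely, with replicate 2 highest. The matrix protease gene Mmp3 was lower, at 0.180, 1.35 and 0 FPKM in the spheres and 9.21, 15.8 and 54.4 FPKM in adult LG (log2 fold change -3.91, SE 0.66, adjusted p = 0.00568).

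Interferon response genes were lower or did not pass. Of 27, 20 were tested and 10 were lower (median -1.48), but when scaled to recovered reads none passed in either direction (median -0.74), and after quantile normalization 9 were lower. Limma-voom on recovered reads gave 13 lower and none higher (median -2.2). B2m, the light chain of MHC class I, was at 504, 401 and 522 FPKM in the spheres and 1684, 1864 and 1549 FPKM in adult LG (log2 fold change -1.84, SE 0.19, adjusted p = 0.00105), and H2-K1, a heavy chain, at 2.94, 3.78 and 3.43 FPKM in the spheres and 8.90, 18.3 and 24.4 FPKM in adult LG (log2 fold change -1.95, SE 0.36, adjusted p = 0.0081). Gbp3, Oas1a and Usp18, which interferon induces, had log2 fold changes of -2.77, -2.40 and -2.24. Leukocytes also express these genes, and the leukocyte sum was 304 to 816 FPKM in adult LG against 26.3 to 118 FPKM in the spheres. Their part in the difference was not tested.

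The counts of ribosomal protein and respiratory chain genes depended on the scaling. Of 40 ribosomal protein genes, 36 were tested and 4 were higher on the deposited scale (median 0.16), against 24 scaled to recovered reads (median 1.09) and 22 after quantile normalization (0.66). Limma-voom on recovered reads gave 4 higher and 1 lower (median 0.23). Rps2 passed on the deposited scale, at 3438, 5163 and 4132 FPKM in the spheres and 1692, 1644 and 987 FPKM in adult LG (log2 fold change 1.58, SE 0.28, adjusted p = 0.00696), as did Rpl27 (log2 fold change 1.33), Rps19 (1.01) and Rps20 (0.73). Ribosomal protein genes have many pseudogene copies that may share their reads. The call for Rpl27 ended without sphere replicate 3 (log2 fold change 1.37, adjusted p = 0.0517). The call for Rps19 ended without sphere replicate 2 or 3 or adult LG replicate 2 (log2 fold change 0.81 to 1.03, adjusted p 0.0533 to 0.0708). The call for Rps20 ended without sphere replicate 1, 2 or 3 or adult LG replicate 1 or 2 (log2 fold change 0.63 to 0.78, adjusted p 0.0958 to 0.135). Without sphere replicate 3, 1 of 37 was higher, without sphere replicate 2, 2 of 36 were higher and 1 lower, without adult LG replicate 2, 2 were higher, and without adult LG replicate 3, 7 of 37 were higher and 5 lower. Of 35 nuclear genes of the respiratory chain, 30 were tested and 2 were lower, Ndufb9 (log2 fold change -1.22) and Ndufv1 (-1.04) of complex I (median -0.12). Limma-voom on recovered reads gave none higher and 3 lower (median -0.13). Scaled to recovered reads, 14 were higher and none lower (median 0.73), after quantile normalization 7 were higher and 5 lower, and without adult LG replicate 3, on the deposited scale, 13 were lower and none higher. None passed without sphere replicate 1 or 3 or adult LG replicate 1 or 2, and 1 was lower without sphere replicate 2. Ndufv1 moved to 0.06 when scaled to recovered reads. The call for Ndufb9 ended without sphere replicate 1, 2 or 3 or adult LG replicate 1 or 2 (log2 fold change -1.29 to -0.97, adjusted p 0.0923 to 0.129). The call for Ndufv1 ended without sphere replicate 1 or 3 or adult LG replicate 1 or 2 (log2 fold change -1.03 to -0.90, adjusted p 0.0545 to 0.0843). No direction can be given for this group.

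Levels in the other groups, for which comparisons would share the adult LG libraries, are set side by side. Means at day 5 are of 2 libraries, the others of 3. Krt17 had means of 16.0 and 40.9 FPKM in LG at E17.5 and E19.5 and of 4676, 2672 and 2557 FPKM in passage 2 spheres at days 5, 10 and 14. Pkp1 had 3.91 and 6.55 FPKM in the embryonic glands and 625, 540 and 428 FPKM in the spheres at these days. Cdkn2a had 0.332 and 0.232 FPKM and then 101, 74.4 and 70.3 FPKM. These genes were thus high at every sphere time and low in both embryonic groups. Ube2c was not low in embryonic gland, with 95.7 and 81.6 FPKM there and 124, 56.7 and 27.6 FPKM in the spheres at days 5, 10 and 14. Hmga2 lay between, with 11.4 and 3.46 FPKM in embryonic LG and 76.4, 94.2 and 67.3 FPKM in the spheres.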

How the data were processed

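Messenger RNA was enriched on poly-T beads, made into NEBNext Ultra libraries and sequenced as 150-bp pairs. The submitters' processing notes name CASAVA 1.8, HISAT2 2.0.5, featureCounts 1.5.0-p3 and build NCBIM37. The authors deposited FPKM per gene for each library, and how these were derived from counts is not given in the sources used here. The build of the gene models is uncertain, since the gene lengths implied by the values match GENCODE M21, of a later build, so only RefSeq promoter positions are given. Reads per gene were recovered from the FPKM steps for alternatives only.

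All genes averaging 0.5 FPKM or more in the 6 libraries were fitted on log2(FPKM + 1) with limma 3.58.1 in R 4.3.3 (moderated test with a mean-variance trend, two-sided, Benjamini-Hochberg, no covariate, threshold 0.05). Tables and plots used pandas 2.3.3, numpy 2.4.6 and matplotlib 3.10.9 in Python 3.11.15. The code was tested on simulated data. Members and gene lists were chosen with earlier results of these data known. Named genes were those the study names as markers or medium components, the 12 largest rises and 12 largest falls (adjusted p under 0.05, mean of at least 1 FPKM, groups that do not overlap, a gene symbol), and from each list the 4 measured members highest in mean FPKM, plus passing members where few passed. A further 77 genes were named after their values were seen. A listed 0 was set at 3 reads in the library with the largest step for bounds, which cover counting error only. Of the 24 samples listed, 3 were not analysed here. Some genes that the rule names are not reported here.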

Additional observations from a re-analysis of the deposited data

How the results depend on the processing

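Depth limits these results at low levels, where 3 reads are worth between 0.0239 and 1.83 FPKM in the bounds used, and 8299 genes passed an unadjusted p under 0.05. The count of 6238 passing genes (2507 higher, 3731 lower) stayed within 1.5 times of itself with a pseudocount of 0.1 (6538), robust moderation (6159) and all 20 libraries in the fit (9168). It did so too where other numbers of genes were tested. These were no filter on low FPKM (5912 of 35495) and limma-voom on recovered reads (5184 of 13666, loci without a gene length left out). The count moved further to 2808 (1249 higher, 1559 lower) with a mean of at least 5 FPKM, where 5830 genes were tested, and to 11872 (5154 higher, 6718 lower) with sample quality weights, whose estimation stopped before it converged. Scaled to recovered reads, 5448 genes were higher and 1946 lower, and after quantile normalization 4364 were higher. Of the 6238, 6065 kept their direction when scaled to recovered reads and 173 reversed. The cause was not tested. Leaving out each library in turn gave 3770 to 8135 passing genes, 1406 to 3254 higher and 2364 to 4881 lower. The lowest counts came without sphere replicate 3 (3770) and without adult LG replicate 2 (4151, 1572 higher), the higher count was 1667 without sphere replicate 1, and the highest came without adult LG replicate 3. Deviations of same-numbered samples from their group means correlated at -0.02, 0.03 and 0.01. A culture and a gland need not vary in the same genes, so these values cannot show whether same-numbered samples shared a donor. With the number as a replicate block 5032 genes passed (1867 higher, 3165 lower). Alternatives chosen after seeing the data gave 4763 passing of 13666 annotated genes, 5963 of 16570 without genes under 0.1 of passage 10, and 5414 with Xist (1 FPKM or more) as a covariate. Of the named genes, 156 passed and 128 of them passed without any one library. Scaled to recovered reads, log2 fold changes reversed for P2rx7 (0.07 from -0.98), Ndufv1 (0.06 from -1.04), Ebp (0.79 from -0.31), Rpl32 (0.89 from -0.24), Rpl38 (0.90 from -0.23), Atp5b (1.09 from -0.03) and Atp5a1 (1.09 from -0.04). After quantile normalization they reversed for Rpl32 (2.24), Rpl38 (1.02), Atp5b (0.47) and Atp5a1 (0.48), and with quality weights for Stim1 (-0.52 from 0.08).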

Other observations

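Loci assembled by the authors without a gene name were compared in the same fit. Of 3999 tested, 1411 (35.3%) passed, 584 higher in the day 7 spheres and 827 lower, a share close to the 35.2% of all genes. They held 2.84% to 3.39% of the summed FPKM in the spheres and 2.24%, 2.07% and 3.58% in adult LG replicates 1, 2 and 3.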
